A study of Mus musculus with 9 samples.

Results

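Cytosolic ribosomal protein genes were followed in cultured mouse macrophages left untreated or exposed to medium conditioned by pulmonary artery fibroblasts. These genes were taken as the rows of the raw count table whose symbol has the form of an Rpl or Rps gene, with the row of most reads kept where several rows share a symbol. The rule matched 365 rows and 90 symbols, and 84 of them passed a filter of more than 1 CPM (reads scaled by the library's total on genes) in at least 3 libraries, out of 11950 of 53465 genes in all. Of these 84, 49 are named for the large and 35 for the small subunit, and 80 are not annotated as pseudogenes. BMDMs, macrophages grown from the bone marrow of male wild-type C57BL/6 mice (substrain J in the study's methods) in medium with CSF1 at 50 ng/ml, gave 9 RNA-Seq libraries. Of these, 3 were untreated (UNX), 3 were treated with medium of control adventitial fibroblasts (CO-CM) and 3 with medium of adventitial fibroblasts from pulmonary hypertension (PH-CM). The study's methods describe the conditioned media as supplemented with serum and name no control with unconditioned fibroblast medium. Against UNX, fibroblast products and the change of medium therefore cannot be told apart. The age of the mice was not given in the sources used here, and the labels give 16 h of treatment in the growth protocol and 24 h in the treatment protocol, while the study's methods give a further time between them. The fibroblasts came from calves, and each kind of medium was pooled from several fibroblast populations, so that replicates repeat the macrophage culture and not the fibroblast donor, and p-values measure the spread between these cultures.

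The cytosolic ribosome is built of a large subunit, which joins amino acids and holds the exit tunnel, and a small subunit, which binds and decodes mRNA. Each holds a fixed set of proteins, nearly all present in a single copy, and mammals carry for a few of them a second gene (a paralog) beside many processed pseudogenes. Most of their mRNAs begin with a run of pyrimidines, the terminal oligopyrimidine tract, through which mTORC1 and LARP1 control their translation and stability. In macrophages, as in other cells, these mRNAs are among the most abundant and their amount is tied to growth.

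The start sites of members that the results turn on are given here with the 40 bases before and 20 bases from the start site of the RefSeq entry, because pyrimidines at the start site are the feature the family is known for. Capitals mark the longest run of C and T that reaches into the window from 10 bases before to 30 bases after the start, as far as it lies in the bases printed. The first 5 genes had the largest decreases under PH-CM, Rpl10a with both of its start sites, and Rps27 and its paralog Rps27l are compared as a pair. Rack1 and Fau are ribosomal components outside the symbol rule, the former called lower and the latter not called under PH-CM. Rps27l has another RefSeq start site, at chr9:66946373-66946432, whose longest run, of 5 bases, lies past the 20 bases from the start. Sequences are from RefSeq on GRCm38.p6.
Rpl12, chr2:32961672-32961731, plus strand: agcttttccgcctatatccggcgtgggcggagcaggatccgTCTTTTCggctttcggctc
Rps6, chr4:86857348-86857407, minus strand: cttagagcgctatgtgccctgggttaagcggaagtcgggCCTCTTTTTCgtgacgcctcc
Rpl10a, chr17:28328431-28328490, plus strand: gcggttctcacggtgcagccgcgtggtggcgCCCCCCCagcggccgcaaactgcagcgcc
Rpl10a, chr17:28328525-28328584, plus strand: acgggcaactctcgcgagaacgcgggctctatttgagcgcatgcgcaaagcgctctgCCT
Rps26, chr10:128626487-128626546, minus strand: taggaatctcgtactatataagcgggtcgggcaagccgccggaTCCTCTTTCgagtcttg
Rps18, chr17:33955646-33955705, minus strand: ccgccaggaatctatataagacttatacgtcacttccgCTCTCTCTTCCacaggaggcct
Rps27, chr3:90213629-90213688, minus strand: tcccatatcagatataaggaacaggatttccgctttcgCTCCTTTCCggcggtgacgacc
Rps27l, chr9:66946046-66946105, plus strand: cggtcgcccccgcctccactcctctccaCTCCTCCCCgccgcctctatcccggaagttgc
Rack1, chr11:48800320-48800379, plus strand: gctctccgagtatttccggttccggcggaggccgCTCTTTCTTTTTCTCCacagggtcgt
Fau, chr19:6057907-6057966, plus strand: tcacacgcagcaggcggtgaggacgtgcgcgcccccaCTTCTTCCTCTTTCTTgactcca

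RefSeq entries were found for 60 of the 84 members, with 71 start sites among the 32851 in the table. A run of C and T of at least 8 bases reached into the window around the start in 43 of the 71 (60.6%), against 19.5% of all entries. The 300 bases around the start held CTTTCC, a short pyrimidine word, on either strand in 49.3% of the members' entries and in 26.6% of all. CCGGAAG, the core of sites for ETS factors, was present on either strand in 36.6% against 8.86%, and AAGATGGC, a core of YY1 sites, in 11.3% against 2.75%. The 41 members with such a run had a median log2 fold change of -0.58 under PH-CM against untreated cells, the 19 members without one -0.53 and the 24 members with no entry -0.55, so the medians lay close together. Called lower there were 39 of the 41, 15 of the 19 and 21 of the 24, against 31.7% of all genes. Runs that end before the start site, as in Rps27l, were counted too. The tract ran across the start site both in Rps27, not called under PH-CM against UNX, and in Rps18, called lower there. Whether the tract bears on these changes was not tested.

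Libraries held between 62017933 and 84314201 reads on genes. All 10 macrophage markers fixed for the label, Csf1r and Adgre1 among them, were above 1 CPM in untreated cells, and their summed level, on library totals, was 12847 to 13353 CPM in UNX, 19133 to 19870 in CO-CM and 22283 to 23608 in PH-CM. Against UNX, 6 of the 10 were called higher and 1 lower under CO-CM (all genes 28.0% and 28.9%). Under PH-CM 9 were called higher and 0 lower (all genes 31.3% and 31.7%). Lymphocyte markers summed to at most 0.173 CPM, dendritic cell markers to at most 0.787 and neutrophil markers to at most 4.37 in any library. Fibroblast markers summed to 201 to 254 CPM in UNX, 259 to 310 in CO-CM and 250 to 329 in PH-CM, largely through Col1a1 and Col1a2, with Lum and Thy1 under 1 CPM in every group. Genes of DNA replication and mitosis fell with the ribosomal protein genes: all 12 of the list were called lower in each of the 3 comparisons (all genes 28.9%, 31.7% and 15.0%), and their summed level went from 3629 to 4040 CPM in UNX to 728 to 855 in CO-CM and 434 to 492 in PH-CM. Their part in the results below was not tested.

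Reads on the 84 genes took 2.94%, 2.92% and 3.02% of the reads on genes in the untreated libraries. The share was 2.30%, 2.50% and 2.60% in the CO-CM libraries and 1.84%, 1.99% and 1.99% in the PH-CM libraries. The groups did not overlap, and group means were 2.96% ± 0.054 in UNX, 2.47% ± 0.15 in CO-CM and 1.94% ± 0.084 in PH-CM (SD, n = 3). The smallest two-sided p of an exact permutation test is 0.1 for 3 libraries against 3, and no test was made of this share. Large subunit genes held 1.72% ± 0.033, 1.45% ± 0.086 and 1.14% ± 0.045 in the 3 groups, and small subunit genes 1.24% ± 0.021, 1.02% ± 0.067 and 0.80% ± 0.039. Both subunits thus lost share. The ratio of large to small subunit reads was 1.39 ± 0.0037 in UNX, 1.42 ± 0.0088 in CO-CM and 1.43 ± 0.015 in PH-CM, so the small subunit lost slightly more in proportion. Every library of either medium had a higher ratio than every untreated library. In a culture sequenced as a whole, fewer cells of a type and less RNA per cell cannot be told apart.

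**Figure D1:**
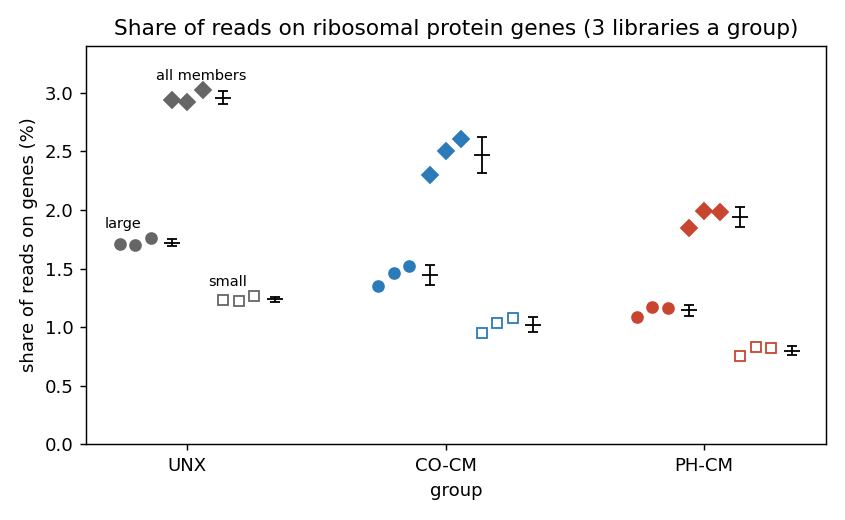
Share of all reads on genes (%, vertical axis) that fell on ribosomal protein genes in each library, by group (horizontal axis), for all 84 genes (diamonds), the large subunit (circles) and the small subunit (open squares). The bars beside the points give mean and SD of 3 libraries, and for all 84 genes the means were 2.96%, 2.47% and 1.94% in UNX, CO-CM and PH-CM.

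Under PH-CM, 75 of the 84 genes were called lower than in untreated BMDMs and 0 higher, where a call is an FDR of at most 0.05 in edgeR's quasi-likelihood test and a fold change of at least 1.2. Among all genes tested 31.7% were called lower and 31.3% higher, 63.0% either way. Levels of single genes are given from here on as CPM on library totals divided by the TMM scaling factors that the fit uses. The 84 genes had a median log2 fold change of -0.56, a decrease of 32.1%, beside 0.01 over all genes, and single genes ranged from -0.999 to 0.04. The medians of the large and the small subunit were both -0.56, with 46 of 49 and 29 of 35 genes called lower. In 81 of the 84 genes all PH-CM libraries lay below all untreated libraries, against 38.8% of all genes, and in 0 genes above, against 38.9%. Without the 4 annotated pseudogenes, 73 of 80 were called lower.

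The largest decrease was in Rpl12, a protein at the base of the stalk where elongation factors bind. Its level was 431, 448 and 476 CPM in UNX, 329, 371 and 412 in CO-CM and 211, 228 and 239 in PH-CM, so the 3 groups did not overlap. Its level under PH-CM was below that in UNX at a log2 value of -0.999 with an SE of 0.082 (FDR 1.4e-06 in edgeR). Its gene overlaps Lrsam1 and Snora65, in 5.2% of its exon bases. Rps6, the substrate of S6 kinase in the small subunit, had 442, 446 and 468 CPM in UNX, 288, 323 and 332 in CO-CM and 228, 243 and 247 in PH-CM. Again each group lay apart, and PH-CM gave a log2 value of -0.91 with an SE of 0.061 (FDR 2.95e-07 in edgeR). Of the 100-base stretches of Rps6, 53.0% also occur in other genes, and what this does to its counts was not tested. Rpl10a, Rps26 and Rps18 completed the 5 largest, with log2 fold changes of -0.89, -0.88 and -0.88 and levels that fell by 46.1%, 45.8% and 45.6%. Rps18 and Rps26 belong to the head and the mRNA exit side of the small subunit, and Rpl10a to the stalk from which tRNA leaves.

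Not called under PH-CM were 9 genes, of which Rps27 alone had a value above 0. Rps14, Rps21 and Rps28 of the small subunit had log2 fold changes of -0.20, -0.26 and -0.19, with all PH-CM libraries below the untreated ones, and Rpl10 of the large subunit had -0.17. These 4 passed the FDR threshold (0.0423, 0.0183, 0.035 and 0.0295 in edgeR) but were below the fold change threshold. Rpl7l1 and Rpl13a are described with the paralogs and the low genes, and Rps4l and Rps3a3 are annotated pseudogenes at 5.12 and 1.01 CPM in UNX.

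**Figure D2:**
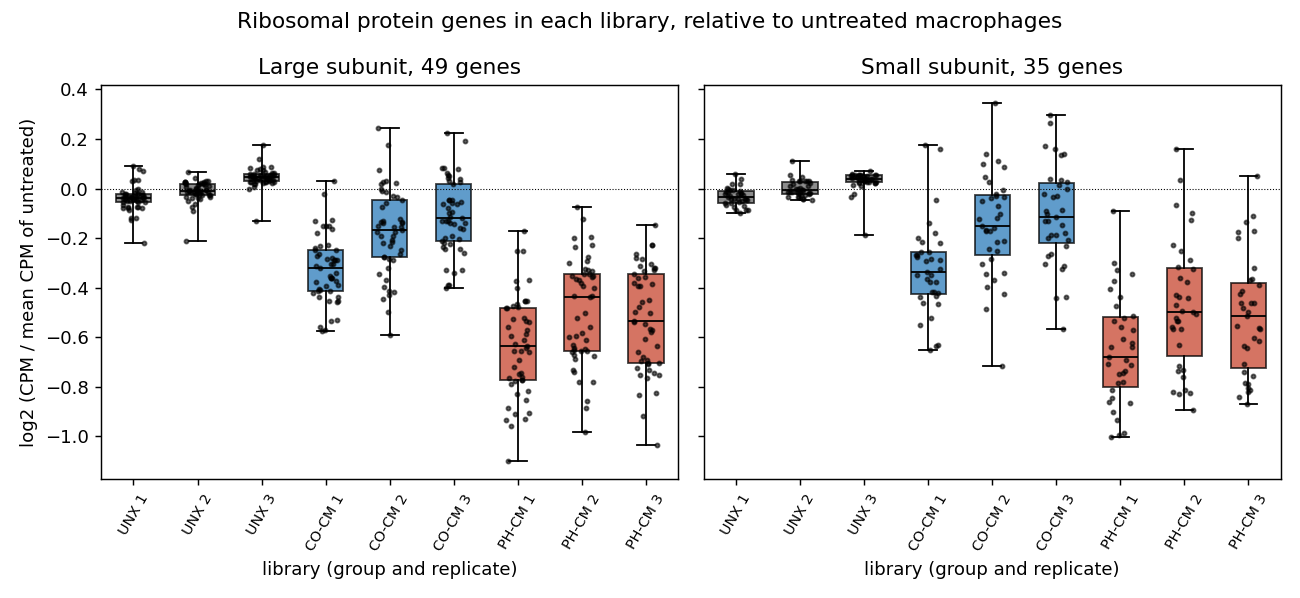
Level of each ribosomal protein gene in each library (points), as log2 of its CPM over its mean CPM in the untreated libraries (vertical axis), with the large subunit on the left and the small subunit on the right. Boxes give the quartiles and median of the genes and whiskers the full range. Most genes sit lowest in the PH-CM libraries, and replicate 1 is the lowest of its group in CO-CM and PH-CM.

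Under CO-CM the median decrease was smaller. Of the 84 genes, 30 were called lower and 1 higher than in untreated BMDMs, against 28.9% and 28.0% of all genes (57.0% either way), so that the share called lower (35.7%) was close to the background. The median log2 fold change was -0.19, a decrease of 12.6%, against 0.00 over all genes, and 78 of the 84 values were below 0. In 52 genes every CO-CM library lay below every untreated library, against 36.7% of all genes, and in 2 genes above, against 35.4%. Large and small subunit had medians of -0.20 and -0.19, with 17 of 49 and 13 of 35 called lower. Leaving out replicate 1 of CO-CM left 16 genes called lower, and scaling by upper-quartile factors left 14. In CO-CM, 77 of the 84 genes were lowest in replicate 1, and in PH-CM 78, against 40.1% and 36.9% of all genes. In UNX, 57 of the 84 genes were lowest in replicate 1, against 39% of all genes. Within replicate numbers 1, 2 and 3, the median log2 difference of CO-CM from UNX was -0.29, -0.16 and -0.15, and that of PH-CM from UNX -0.61, -0.49 and -0.56.

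The 5 largest decreases under CO-CM were in Rps27l, Rps6, Rpl14, Rpl18 and Rps18. Their log2 fold changes were -0.64, -0.52, -0.46, -0.46 and -0.45, with edgeR FDR values of 1.28e-06, 2.41e-05, 6.8e-05, 4.19e-05 and 0.00053. Rpl14 had 317, 316 and 338 CPM in UNX, 217, 240 and 247 in CO-CM and 172, 188 and 192 in PH-CM. Its groups were separate, as were those of Rps6 and Rps18. Rplp2, an acidic protein of the stalk, had 431, 461 and 471 CPM in UNX, 416, 463 and 481 in CO-CM and 325, 356 and 349 in PH-CM. Its untreated and CO-CM libraries overlapped, and the log2 fold change under CO-CM was 0.00 to 2 decimals and of a sign that depended on the scaling.

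Between the media, 65 genes were called lower and 0 higher under PH-CM, against 15.0% and 12.2% of all genes (27.1% either way). In 73 genes every PH-CM library lay below every CO-CM library, against 26.3% of all genes, and in 0 above, against 23.9%. The median log2 fold change was -0.35, a decrease of 21.8%, against -0.01 over all genes, and the medians of large and small subunit were -0.35 and -0.36. Rpl12, Rpl10a, Rpl3, Rpl31 and Rps27a had the largest decreases, with log2 fold changes of -0.71, -0.69, -0.66, -0.62 and -0.54. Rpl31, which lies beside the exit tunnel, had 365, 393 and 406 CPM in UNX, 382, 437 and 453 in CO-CM and 258, 287 and 284 in PH-CM. Its untreated and CO-CM libraries overlapped, and all PH-CM libraries lay below both. Rpl3, a core protein near the peptidyl transferase center, had 561, 562 and 592 CPM in UNX, 458, 500 and 528 in CO-CM and 299.7, 315 and 322 in PH-CM. The mean level was highest in UNX and lowest in PH-CM in 76 of the 84 genes, and in 27.7% of all genes.

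**Figure D3:**
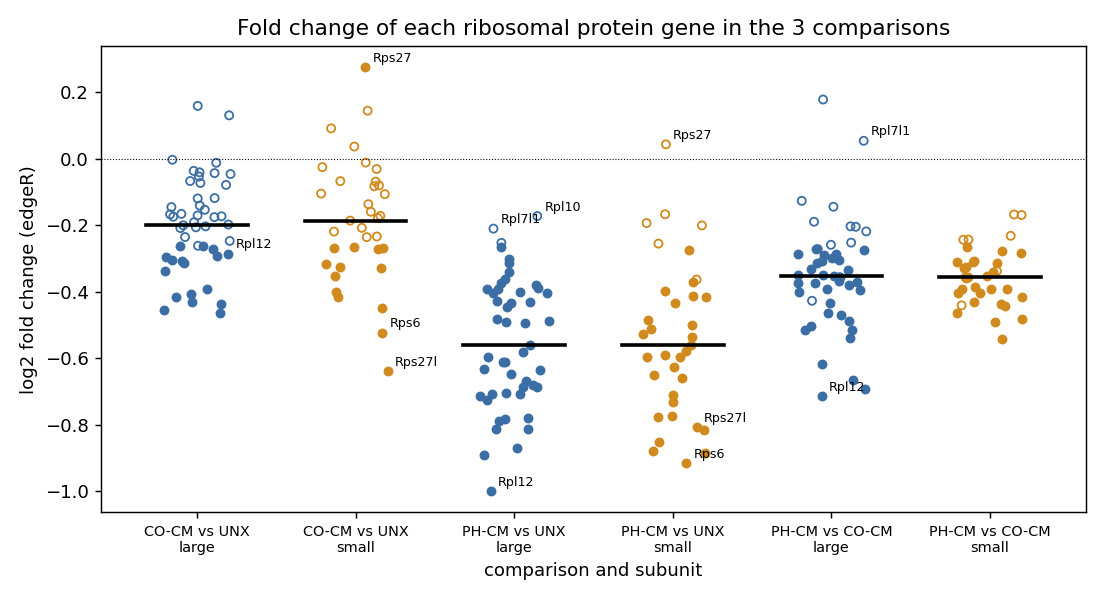
Log2 fold change from edgeR (vertical axis) of each ribosomal protein gene in the 3 comparisons, by subunit (horizontal axis). Filled points were called, open points were not, and black bars are medians. The subunits have near-equal medians in each comparison, and Rps27 is the single gene called higher, under CO-CM.

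Rplp0, the scaffold of the acidic proteins in the stalk that recruits elongation factors, had 943, 953 and 991 CPM in UNX, 802, 923 and 931 in CO-CM and 742, 838 and 822 in PH-CM. The PH-CM libraries were all below the untreated ones, at a log2 value of -0.26 (FDR 0.00547 in edgeR), and they overlapped those of CO-CM. That call was lost in 6 alternatives. The acidic stalk proteins Rplp1 and Rplp2 had log2 fold changes of -0.40 each under PH-CM (edgeR FDR 6.08e-05 and 0.000196), and -0.04 and 0.00 under CO-CM, neither of them called. Rpl5 and Rpl11, which with 5S rRNA form the particle that can bind MDM2, changed by -0.56 and -0.69 under PH-CM and were called lower, and by -0.19 and -0.31 under CO-CM, where Rpl11 alone was called.

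In the small subunit, Rpsa, which also occurs as the laminin receptor, had log2 fold changes of -0.35 with CO-CM and -0.81 with PH-CM, at FDR values of 0.000417 and 6.99e-07 in edgeR. Its mean was 815 ± 19.5 CPM in UNX, 639 ± 43.6 in CO-CM and 463 ± 23.5 in PH-CM (SD, n = 3), and all 3 groups were separate. Rps2 and Rps3, which line the mRNA entry, fell by 0.73 and 0.51 on the log2 scale under PH-CM. Rps27a, made as a fusion to ubiquitin, had 365, 362 and 368 CPM in UNX, 283, 315 and 333 in CO-CM and 201, 222 and 216 in PH-CM. Its log2 fold change was -0.78 under PH-CM (edgeR FDR 1.22e-06), and the value of -0.23 under CO-CM was below the fold change threshold.

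By length-scaled level (RPKM, as the authors deposited it), Rplp1 was highest in untreated cells at 1822 ± 28.2 (SD, n = 3), followed by Rpl8 at 824 ± 24.1, Rps15 at 664 ± 10.9, Rpl36 at 633 ± 24.8 and Rplp0 at 597 ± 11.3. The 5 lowest were Rpl13a at 5.16, Rpl6l at 4.2, Rps3a2 at 2.52, Rps3a3 at 1.30 and Rpl36al at 1.06. RPKM depends on the gene length used, which the deposited counts and RPKM values put at about 499 bases for Rplp1, 862 for Rpl8 and 1659 for Rplp0. Under PH-CM the 5 highest were also called lower, with log2 fold changes of -0.40 for Rplp1, -0.79 for Rpl8, -0.58 for Rps15, -0.68 for Rpl36 and -0.26 for Rplp0.

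Of the 8 parent and paralog pairs examined, both members passed the filter in 5. In the pair Rps27 and Rps27l, proteins of the small subunit whose coding sequences are 76.2% identical over 252 bases, the paralog and the parent were compared library by library. Rps27 (chr3:90212522-90213651) had 148, 151 and 146 CPM in UNX, 168, 189 and 183 in CO-CM and 139, 166 and 154 in PH-CM. All CO-CM libraries lay above the untreated ones, at a log2 value of 0.27 with an SE of 0.066 (FDR 0.00364 in edgeR), and PH-CM overlapped UNX with 0.04 (FDR 0.573). All PH-CM libraries of Rps27 lay below those of CO-CM, at -0.23 (FDR 0.0187 in edgeR), short of the fold change threshold. The value under CO-CM lay just above the fold change threshold: over all alternatives it ranged from 0.20 to 0.34 with edgeR or DESeq2 FDR values up to 0.0208, and 9 alternatives put it below that threshold. Rps27l (chr9:66946086-66949516), which is known as a target of p53, had 62.5, 59.7 and 63.0 CPM in UNX, 39.7, 37.6 and 41.6 in CO-CM and 35.1, 34.9 and 35.8 in PH-CM. Against UNX its log2 fold changes were -0.64 and -0.81, at FDR values of 1.28e-06 and 1.66e-07 in edgeR, and -0.17 between the media (FDR 0.022), below the fold change threshold.

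The log2 ratio of Rps27l to Rps27 reads was -1.24, -1.34 and -1.21 in UNX, -2.07, -2.33 and -2.13 in CO-CM and -1.98, -2.24 and -2.10 in PH-CM. Untreated libraries stood apart from both media, and the media overlapped. Rps27l gave 29.4% of the pair's reads in UNX, 18.1% in CO-CM and 18.8% in PH-CM. The exact permutation test over the 3 groups gave p = 0.0214 and, adjusted over the 5 pairs, p = 0.107, and the smallest p it can give is 0.00357. With assignments kept within replicate numbers, the adjusted p of the exact permutation test for Rps27l was 0.0694.

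**Figure D4:**
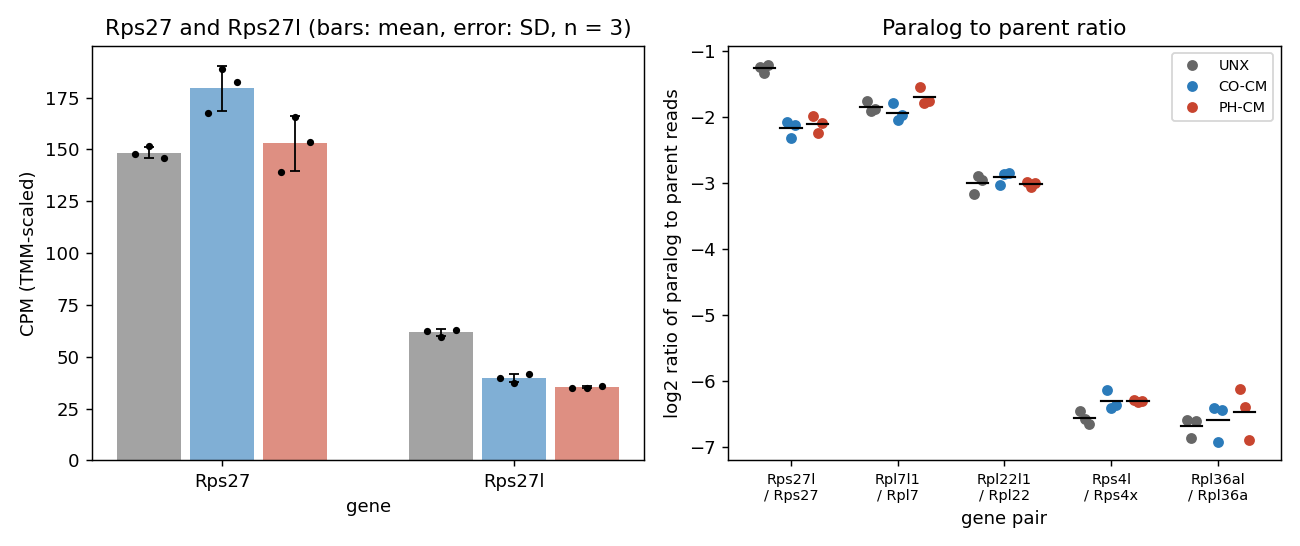
Left, CPM of Rps27 and Rps27l in each library (points), with mean (bars) and SD for 3 libraries of UNX, CO-CM and PH-CM from left to right. Right, log2 ratio of paralog to parent reads per library (points) and group means (lines) for the 5 pairs; the ratio for Rps27l is near -1.26 in UNX and near -2.18 and -2.11 in CO-CM and PH-CM.

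After adjustment 0 of the 5 pairs passed a threshold of 0.05, with free assignments or with assignments kept within replicate numbers. Kept within replicate numbers, the assignments are fewer, and a single pair at the smallest possible p cannot pass after adjustment over the 5 pairs. Rps27l and Rpl7l1 both had that smallest p, so no conclusion is drawn from the count under this alternative. Rpl7l1, a relative of an assembly factor of the yeast large subunit and 53.0% identical to Rpl7 in its coding sequence, had 111, 97.8 and 104 CPM in UNX, 87.8, 83.5 and 89.3 in CO-CM and 92.7, 88.5 and 89.2 in PH-CM. Both media lay below untreated cells and overlapped each other. It was called lower under CO-CM at a log2 fold change of -0.26 (edgeR FDR 0.00116), a call that 9 alternatives lost, and not under PH-CM at -0.21 (FDR 0.00415), while Rpl7 had -0.17 and -0.36. The log2 ratio of Rpl7l1 to Rpl7 was -1.85 ± 0.086 in UNX, -1.94 ± 0.13 in CO-CM and -1.70 ± 0.13 in PH-CM (exact permutation p = 0.104, adjusted p = 0.173). With assignments kept within replicate numbers, the adjusted p of the exact permutation test for Rpl7l1 was 0.0694. Rpl22l1 and Rpl22, which bind RNA and are 66.9% identical, fell alike under PH-CM at -0.70 and -0.69. Rpl22l1 had 17.2, 19.7 and 19.5 CPM in UNX, 14.2, 17.1 and 17.8 in CO-CM and 11.2, 11.9 and 11.5 in PH-CM, and the ratio to Rpl22 differed by -0.01 between PH-CM and UNX (exact permutation p = 0.468, adjusted p = 0.585). Rpl36al had a mean of 1.39 CPM in UNX and at most 1.51 in any library, and its ratio to Rpl36a differed by 0.22 between PH-CM and UNX (exact permutation p = 0.618, adjusted p = 0.618). With a library left out, this difference ranged from 0.0472 to 0.433. For Rps4l, an annotated pseudogene with about 1.03% of the pair's reads in UNX, the ratio to Rps4x differed by 0.25 between PH-CM and UNX (exact permutation p = 0.0464, adjusted p = 0.116).

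Some members with few reads share sequence or position with other genes. Rpl13a, a protein known to be released from the ribosome of interferon-treated myeloid cells, had 11.2, 10.9 and 9.66 CPM in UNX, 7.74, 7.79 and 8.03 in CO-CM and 8.88, 10.0 and 7.71 in PH-CM. It was called lower under CO-CM (log2 fold change -0.43, edgeR FDR 0.00338), and its PH-CM libraries overlapped both other groups. Its exons overlap other genes, Gm45713 among them, in 35.4% of their bases, and 55.2% of its 100-base stretches occur in other genes. Rpl24 did not pass the filter, with 285 reads in all 9 libraries, and its exons overlap Gm28037 in 47.0% of their bases, with 80.1% of its stretches shared. Whether reads that could not be placed account for these low values was not tested. The other 5 that did not pass were Rpl39l with 238 reads, Rpl3l with 33, Rpl10l with 2, and Rpl48 and Rps12l1 with 0. Rpl39l, Rpl3l and Rpl10l are the paralogs of Rpl39, Rpl3 and Rpl10, which had mean levels of 117, 571 and 535 CPM in UNX. Of the 16 members with over 50% of their stretches shared, 15 were called lower under PH-CM with a median log2 fold change of -0.62, and of the 31 with at most 10% shared there were 26, with a median of -0.51. Among all genes tested, 31.7% were called lower under PH-CM against UNX.

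Ribosomal components and partners outside the symbol rule were read from lists. Rack1, a scaffold on the head of the small subunit, had 685, 676 and 715 CPM in UNX, 485, 555 and 566 in CO-CM and 368, 420 and 424 in PH-CM, with log2 fold changes of -0.37 and -0.78 (edgeR FDR 0.00101 and 3.9e-06). Fau, whose product includes the small subunit protein eS30, had 272, 305 and 309 CPM in UNX, 271, 318 and 328 in CO-CM and 261, 307 and 298 in PH-CM. Its groups overlapped, with log2 fold changes of 0.05 and -0.03 (FDR 0.626 and 0.733).

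Of 13 elongation factors and other genes whose mRNAs carry terminal oligopyrimidine tracts, 9 were called lower and 1 higher under each medium against UNX, with medians of -0.34 under CO-CM and -0.54 under PH-CM, and 4 were lower under PH-CM than under CO-CM. The shares of all genes called lower were 28.9% under CO-CM, 31.7% under PH-CM and 15.0% between the media, and those called higher 28.0%, 31.3% and 12.2%. Nap1l1, a histone chaperone, and Eef1g, a subunit of elongation factor 1, fell by 1.73 and 1.18 on the log2 scale under PH-CM. Tpt1, the translationally controlled tumor protein, was the one called higher: it had 1505, 1685 and 1644 CPM in UNX, 2118, 2332 and 2274 in CO-CM and 2218, 2449 and 2373 in PH-CM, with log2 fold changes of 0.48 and 0.54 (edgeR FDR 8.51e-05 and 2.63e-05). The most abundant, Eef1a1, was not called at 0.15 and -0.11. Of 13 subunits of the initiation factor eIF3, 5 were called lower under CO-CM and 8 under PH-CM, 1 was lower under PH-CM than CO-CM, and 0 were called higher. The count under CO-CM is near the 28.9% of all genes called lower there, and the background under PH-CM is 31.7%.

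Of 77 mitochondrial ribosomal protein genes tested, 47 were called lower under CO-CM and 54 under PH-CM, with 2 higher in each, against 28.9% and 31.7% of all genes called lower, and the medians were -0.32 and -0.39. Between the media 6 were lower and 2 higher under PH-CM with a median of -0.07, against 15.0% and 12.2% of all genes, where the cytosolic genes had 65 of 84 lower and a median of -0.35. The difference between these lists was not tested.

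Of 18 genes of mTOR signaling and the control of these mRNAs, 5 were called higher and 6 lower under CO-CM and 6 higher and 5 lower under PH-CM, shares near those of all genes (28.0% and 28.9%, 31.3% and 31.7%). Between the media 4 were higher (Deptor, Ddit4, Sesn2 and Rptor) and 2 lower (Tsc1 and Pdcd4) under PH-CM, against 12.2% and 15.0% of all genes. Mtor itself was not called in any comparison, with log2 fold changes from 0.00 to 0.03. Larp1, which binds the tract, fell by 0.59 under CO-CM and by 0.46 under PH-CM, and Eif4e, the cap-binding factor, by 1.29 and 1.18. Deptor, an inhibitor of mTOR, rose from 22.5, 27.4 and 24.8 CPM in UNX to 39.3, 41.0 and 35.9 in CO-CM and 56.3, 66.2 and 60.9 in PH-CM, with all groups separate and 0.66 on the log2 scale between the media (FDR 0.000177 in edgeR). Ddit4, another inhibitor of mTORC1, was at 3.76, 4.92 and 4.70 CPM in UNX, 4.79, 4.27 and 5.05 in CO-CM and 13.6, 15.6 and 14.8 in PH-CM. Its untreated and CO-CM libraries overlapped, and under PH-CM it rose by a log2 fold change of 1.72 against UNX (edgeR FDR 3.1e-07). Tsc1, part of the complex that inhibits mTORC1 through Rheb, had log2 fold changes of 0.55 under CO-CM and 0.27 under PH-CM, and -0.28 between the media (FDR 0.00541 in edgeR). Rptor, the scaffold of mTORC1, was called lower under CO-CM at -0.38 and not under PH-CM at -0.04, with 0.34 between the media (FDR 0.000427 in edgeR).

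The spread between replicates of ribosomal protein genes was small in untreated cells, with a median SD of 0.05 on log2 CPM against 0.09 over all genes. Under CO-CM the median SD was 0.11 against 0.10, and under PH-CM 0.08 against 0.08. Most members are abundant, and the background was not matched to them on level, on which counting error depends.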

How the data were processed

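RNA-Seq of 9 BMDM libraries was analysed, with groups and replicate numbers taken from the labels. Per the labels, quality control by the authors used FastQC and AfterQC, STAR served for alignment against GRCm38, and featureCounts 1.6.2 made the gene table. Its deposited counts are unnormalized whole numbers. The deposited RPKM values were computed by the authors per kilobase and library total, without TMM factors, and were compared only within UNX. The counting is described without options for read pairs or strand, and 81.4% to 83.8% of counts under 20 were even, so each mate was taken to count on its own, and genes that overlap on opposite strands cannot be told apart. The authors' comparison tables hold fold changes and p-values and were not used.

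Counts of genes over 1 CPM in 3 or more libraries were scaled by TMM and tested in R 4.3.3 with edgeR 4.0.16 (quasi-likelihood, 1 fit of all 9 libraries, Benjamini-Hochberg over 11950 genes). Printed levels of tested genes are TMM-scaled CPM, while the filter, shares and summed marker levels use library totals. Paralog ratios used CPM on library totals with a pseudocount of 0.1 and an exact permutation test over all 1680 assignments, two-sided by construction. An alternative of that test kept the assignments within replicate numbers. Log2 CPM for the spread used a prior count of 2. The fit was tested on simulated data: for PH-CM against UNX, 86.7% of genes changed by 1.5-fold and 100% of those changed by 2-fold were recovered, with 12 false calls among 11767 genes. For CO-CM against UNX, 88.5% and 100% were recovered, with 8 among 11756. The simulation changed 200 genes, equally many up and down, at a dispersion of 0.01 and without an effect of replicate number. In the data 57.0% of genes were called under CO-CM and 63.0% under PH-CM against UNX. The simulated rates therefore hold for that setting and do not give the error rates in these data. The lowest chi-square per gene between libraries of a group was 10.61, so no library was a copy of another. Same-numbered libraries deviated together (r from 0.276 to 0.484 across genes, other pairs at most 0.042), so the numbers were taken to pair libraries. The main fit and the main permutation test did not use this pairing, so the SE and FDR values printed for single genes are unpaired. It entered through the replicate block and the assignments within replicate numbers, which are alternatives.

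Members and lists were chosen with earlier results of these data known. Named genes are all parents and paralogs, the 5 largest called changes in each direction, the 5 highest and lowest by RPKM, a fixed set of roles and the members below the filter, and others named in the text were chosen after their values were seen. The library totals of 62017933 to 84314201 reads make counting error small for members above about 10 CPM. Coordinates, overlaps and coding sequences are from GENCODE on GRCm38. Alternatives were other scaling (DESeq2 1.42.0 size factors, upper quartile, library size, TMM without the members), other filters, the exact test of edgeR, DESeq2, a fit of 2 groups, a replicate block, length-corrected offsets, summed rows sharing a symbol, other fold change thresholds and each library left out. The fit without replicate 1 of every group was added after seeing the data.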

Additional observations from a re-analysis of the deposited data

How the results depend on the processing

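The decrease under PH-CM kept its count within 1.5 times under each scaling, filter, test and left-out library: leaving out a library gave 71 to 78 genes called lower against UNX and 48 to 71 against CO-CM. The decrease under CO-CM was less stable, with 16 to 38 called lower when a library was left out (16 without replicate 1 of CO-CM), 14 with upper-quartile factors and 19 without replicate 1 of every group. The 1 gene called higher under CO-CM, Rps27, was lost (0 called) with library size alone, no filter, filterByExpr, length-corrected offsets with and without the replicate block, and without UNX replicate 1, UNX replicate 3, CO-CM replicate 2 or CO-CM replicate 3, so leaving out a library gave 0 to 1. Without a fold change threshold 50 genes were lower and 2 higher under CO-CM, and with a threshold of 2 there were 0 in every comparison and direction, since the log2 fold change of -0.999 of Rpl12 falls just short. No filter and filterByExpr gave 1 gene higher under PH-CM, Rpl39l, which the filter otherwise removes. With a replicate block in the model, edgeR called 30 genes lower under CO-CM, 75 under PH-CM and 67 between the media, and changed no count by over 1.5 times.

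Among named genes, signs turned in values near 0. The log2 ratio of Rpl22l1 to Rpl22 between PH-CM and UNX was 0.028 with a pseudocount of 1 CPM and -0.0899 to 0.0456 with a library left out. Upper-quartile factors gave 0.0223 for Rplp1, 0.0624 for Rplp2 and 0.0407 for Rps3a3 under CO-CM. Rplp2 was 0.00202 with DESeq2 size factors, 0.002 with the Wald test of DESeq2 and -0.0515 to 0.0541 with a library left out, where Rpl39 was -0.156 to 0.0252 and Rps3a3 -0.201 to 0.111. Without replicate 1 of every group Rplp2 was 0.00818 and Rps3a3 0.133. Under PH-CM, Rps27 was -0.0159 with library size alone, -0.00163 with no filter and -0.0194 to 0.101 with a library left out. The causes were not tested. Depth limits mainly Rpl36al, Rps3a2 and Rps3a3, near 1 CPM.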
